A study of Bos taurus with 48 samples.

Results

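The genes described here are the ones whose level in the whole blood of dairy calves was lower 8 days after weaning than 14 days before the last milk feed, in Holstein-Friesian and in Jersey calves alike. A gene was a member when its mean level over the 48 libraries was at least 1 CPM (counts per 1000000 reads assigned to genes), its log2(CPM + 0.5) changed from d -14 to d 8 by -0.35 or less as a mean of 16 calves, the change was below 0 in at least 14 of the 16 calves, and the mean change was below 0 in each breed. There were 24616 annotated genes, of which 12382 passed the CPM minimum, and 57 of the latter, or 0.46%, met every criterion. The members were chosen by the change from d -14 to d 8, so that change is given here as a description with no test, and "fell" or "fall" in the text refers to it.

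The study sampled 8 Holstein-Friesian (H-F) and 8 Jersey (J) bull calves 3 times, before weaning (d -14), on the day after it (d 1) and a week later (d 8), where d 0 is the day milk ended. This gave 6 groups of 8 libraries, each library being 1 calf on 1 day. All calves were group housed and were fed milk replacer, which was withdrawn stepwise before d 0, together with concentrate. No group stayed on milk, so the effect of weaning cannot be told apart from that of age and of time spent on the farm. The H-F calves came from 1 farm, whereas the J calves came from 2 farms and were older at enrolment, so breed cannot be told apart from farm of origin and age. The concentrate of the H-F calves was capped and that of the J calves was not, but per the study the H-F calves did not eat up to the cap. Whole blood holds red cells, platelets and all white cell types, and in such samples fewer cells of a type and less RNA per cell cannot be told apart.

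Weaning moves a calf from milk, a diet rich in fat and lactose, to solid feed that is fermented in the rumen. Blood white cells carry receptors for lipids, for microbial sugars and for cytokines, and they change in number and in gene activity when hormones, nutrients or microbes change. Monocytes and dendritic cells take up lipoproteins and antigens through scavenger and lectin receptors. Neutrophils, the other main phagocyte of blood, carry decoy receptors that limit the response to interleukin 1.

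Library totals ranged from 26219017 to 39095624 counts with a median of 33348750. J calf 85 had the lowest likeness to its own groups of the 16 calves, with a median correlation of 0.976 over its libraries against 0.989 to 0.993 for the other calves. The study left out a J calf without naming it in the labels, so all 16 calves were kept here and values without J calf 85 are given where they differ. Of the 57 members 15 had a symbol or name in the sources used here and 42 had neither. The names came from the study's lists of genes that differ between the breeds, so the named members are not a neutral sample of the 57.

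The mean changes of the 57 members ranged from -2.39 to -0.352 on the log2 scale. Their median change was -0.46, against -0.0034 over all 12382 genes. A change of at least 1 on the log2 scale was seen for 5 members, and 32 members fell by less than 0.5. The level was lower at d 8 in all 16 calves for 13 members, in 15 calves for 23 and in 14 calves for 21. For 0 of the 57 members did the 16 values of d 8 and the 16 values of d -14 fail to overlap, as for 0% of the 12382 genes. Just inside the threshold were DMD with -0.36 and 2 genes without a symbol with -0.354 and -0.352, and the nearest genes outside it had -0.347, -0.345 and -0.338.

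The 5 members with the largest falls had no symbol in the sources used here and are given by their Ensembl identifiers. The last 3 of them were picked out after their values were seen. ENSBTAG00000038748 had the largest fall, to 5.24 times lower at d 8, with a mean change of -2.39 ± 0.92 (SD, n = 16). Its level at d -14 was 98 to 2738 CPM with a median of 585.8 over the 16 calves. At d 1 the range was 36.1 to 1095 CPM with a median of 146.8, and at d 8 it was 41 to 1106 CPM with a median of 82.8. The medians stepped down at each sampling while the ranges overlapped, and 1 J calf, number 57, stayed at 1095 CPM or more.

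ENSBTAG00000038757 changed by -2.0 ± 0.97 on the log2 scale (SD, n = 16). Its medians over 16 calves were 3.12 CPM at d -14, 0.488 CPM at d 1 and 0.236 CPM at d 8. This is a sparsely read gene, for which the median library held 109 reads at d -14 and 8 reads at d 8. The d 8 library of J calf 6 held 0 reads, which allows a level of up to 0.096 CPM at 3 counts. The fall on the log2(CPM + 0.5) scale understates the change of such a gene. ENSBTAG00000013178 fell by 1.94 ± 0.93, with medians of 24.9 CPM at d -14, 9.46 CPM at d 1 and 6.30 CPM at d 8. The mean change of this gene was -1.31 ± 0.72 in H-F and -2.58 ± 0.64 in J (SD, n = 8 each), and that difference, which lies within the change used to choose the gene, was not tested. ENSBTAG00000012403 fell by 1.77 ± 0.76, from a median of 3.49 CPM at d -14 to 0.387 CPM at d 8. ENSBTAG00000006342 fell by 1.03 ± 0.45, from a median of 188.2 CPM at d -14 to 86.7 CPM at d 8.

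The same calves were often at the extremes for these 5 genes, which is a description, as agreement between ranks was not tested. J calf 57 held the highest level of the 8 J calves for 5 of the 5 genes on each of the 3 days. At d 8 its level of ENSBTAG00000038748 was 15.4 times the median of the other J calves, and its level of ENSBTAG00000006342 was 2.56 times that median. H-F calf 32 was the highest H-F calf for 4 of the 5 at d -14, all 5 at d 1 and 2 at d 8, and had 961.3 CPM of ENSBTAG00000038748 where the H-F median was 201.3 CPM. At the low end, J calf 85 had the lowest J level of all 5 at d -14, of 4 at d 1 and of 3 at d 8. H-F calf 27 was among the 3 lowest H-F calves for all 5 on each day. H-F calf 33 was among them for 5 at d -14, 0 at d 1 and 4 at d 8. H-F calf 33 had the smallest fall of the 16 calves for all 5, and its level of ENSBTAG00000012403 was higher at d 8 by 0.13 on the log2 scale. Without J calf 57 the mean changes of these 5 genes in the J calves were -1.18 to -2.87, against -1.09 to -2.68 with it.

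**Figure D1:**
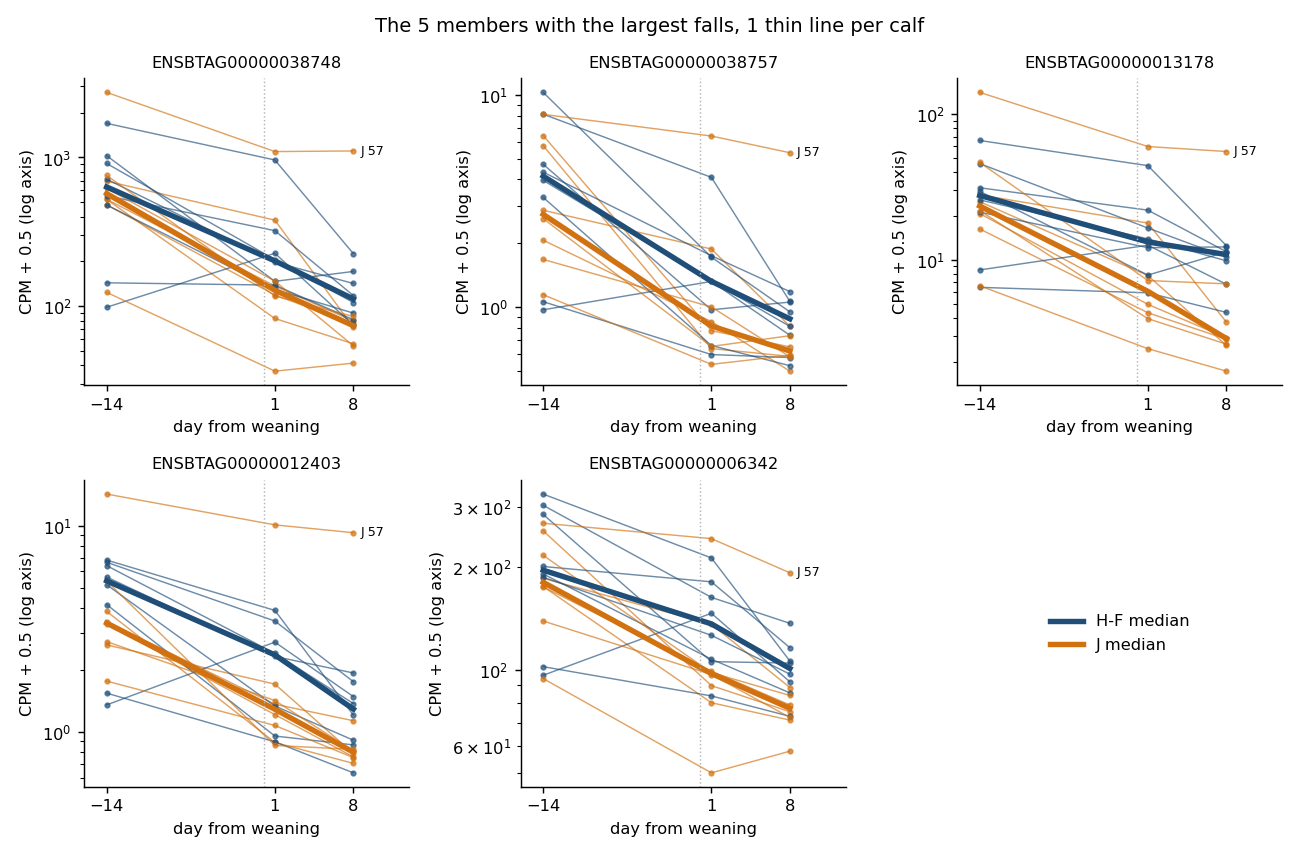
Level of the 5 members with the largest falls, as CPM + 0.5 on a log axis, against the day from weaning (the dotted line is d 0). Each thin line is 1 calf, blue for H-F and orange for J, and thick lines are breed medians. The medians fall at each step in both breeds, and J calf 57 stays far above the other J calves at d 8 for ENSBTAG00000038748, where it has 1106 CPM and the others at most 84.9 CPM.

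Of the named members, LPL and OLR1 handle lipids. LPL (ENSBTAG00000012855) encodes lipoprotein lipase, which releases fatty acids from the triglycerides of circulating lipoproteins. Its level in the H-F calves had a lowest, median and highest value of 36.5, 48.9 and 73.1 CPM at d -14 and of 18.4, 31.9 and 40.5 CPM at d 8. In the J calves the values were 12.6, 29.5 and 45.7 CPM at d -14 and 12.8, 14.9 and 36.2 CPM at d 8. The change was -0.60 ± 0.47 (SD, n = 16), and the level was lower in 8 of 8 H-F calves and in 6 of 8 J calves. OLR1 (ENSBTAG00000004547) encodes the lectin-like receptor for oxidised low density lipoprotein. Its H-F values were 57.9, 78.5 and 99.4 CPM at d -14 and 35.6, 54.7 and 78.6 CPM at d 8. Its J values were 25.4, 58.2 and 64.6 CPM at d -14 and 31.8, 41.03 and 49.03 CPM at d 8. The J calf that was lowest at d -14, number 13, was the exception among 16 calves and changed by 0.70 in the other direction.

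CD209 and IL1R2 are receptors of phagocytes and antigen-presenting cells. CD209 (ENSBTAG00000007312) encodes a C-type lectin that binds mannose-rich sugars on microbes and is found on dendritic cells and macrophages. It had the largest fall of the named members, with a change of -0.71 ± 0.62 (SD, n = 16). Its H-F values were 1.41, 2.40 and 9.70 CPM at d -14 and 0.440, 1.82 and 6.29 CPM at d 8. Its J values were 0.509, 1.79 and 2.87 CPM at d -14 and 0.416, 0.594 and 1.05 CPM at d 8. The J calves ended in a narrow low range while the H-F calves stayed spread out. With CPM computed from TMM-normalized library sizes CD209 no longer met the rule.

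IL1R2 (ENSBTAG00000006343) encodes the type 2 interleukin 1 receptor, a decoy that binds interleukin 1 without signalling and is induced by glucocorticoids. Its change was -0.13 ± 0.39 in H-F calves and -0.66 ± 0.25 in J calves (SD, n = 8 each), and it was below 0 in 6 of 8 H-F and 8 of 8 J calves. The J medians were 2.94 CPM at d -14, 2.73 CPM at d 1 and 1.60 CPM at d 8. The H-F medians were 8.12, 6.71 and 7.09 CPM on the same days, so that the H-F median was lowest at d 1 and the J median at d 8. The difference between the breeds in this change was not tested, as the rule used it. By d 1 only 27% of its fall had taken place, the smallest share of the 57 members. With a pseudocount of 1 in place of 0.5 IL1R2 did not meet the rule.

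GPR34, F2RL2, FLT3 and C-MET are cell surface receptors of other kinds. GPR34 (ENSBTAG00000020144) encodes a G protein-coupled receptor for lysophosphatidylserine, and its level was lower at d 8 in 16 of 16 calves with a change of -0.57 ± 0.36 (SD, n = 16). F2RL2 (ENSBTAG00000000898) encodes protease-activated receptor 3, which thrombin cleaves, and it changed by -0.43 ± 0.42. FLT3 (ENSBTAG00000018572) encodes the receptor tyrosine kinase that dendritic cell progenitors need, and it changed by -0.46 ± 0.34, with 8 of 8 J calves and 6 of 8 H-F calves lower. C-MET (ENSBTAG00000006161) encodes the hepatocyte growth factor receptor and had the most even fall of the named members, -0.40 ± 0.22 in 16 of 16 calves. The median over the 16 calves went from 15.3 CPM at d -14 to 13.1 CPM at d 1 and 11.6 CPM at d 8 for C-MET. For GPR34 it went from 4.54 to 3.57 and 2.99 CPM, and for FLT3 from 6.597 to 5.74 and 4.75 CPM.

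HR and MYCL act in the nucleus. HR (ENSBTAG00000012036) encodes the hairless corepressor, which binds the thyroid hormone and vitamin D receptors. Its level was lower at d 8 in 16 of 16 calves with a change of -0.56 ± 0.29 (SD, n = 16), of nearly the same size in H-F (-0.54) and J (-0.57). The H-F values were 6.07, 7.23 and 8.94 CPM at d -14 and 2.98, 4.89 and 7.59 CPM at d 8. The J values were 8.29, 11.2 and 13.6 CPM at d -14 and 3.74, 7.31 and 10.97 CPM at d 8. MYCL (ENSBTAG00000006338), a transcription factor of the MYC family, changed by -0.46 ± 0.37, from a median of 1.47 CPM at d -14 to 1.05 CPM at d 8.

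The other members described here have structural or metabolic roles. TPPP3 (ENSBTAG00000019822), which binds tubulin, changed by -0.61 ± 0.39 (SD, n = 16), from a median of 69.0 CPM at d -14 to 52.4 CPM at d 1 and 45.5 CPM at d 8. DMD (ENSBTAG00000008248), which encodes dystrophin, changed by -0.36 ± 0.38. GDA (ENSBTAG00000011545), the guanine deaminase that converts guanine to xanthine, changed by -0.37 ± 0.39, from a median of 123.0 CPM at d -14 to 89.2 CPM at d 8. A gene given only as ferritin (ENSBTAG00000023666), named after the iron storage protein, changed by -0.36 ± 0.35, from a median of 1.66 to 1.32 CPM. Ferritin genes have near-identical copies, and only unique alignments were kept. Reads that match several copies were thus not counted, so the value of this ferritin gene is uncertain. Neither the ferritin gene nor DMD met the rule with a pseudocount of 1.

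**Figure D2:**
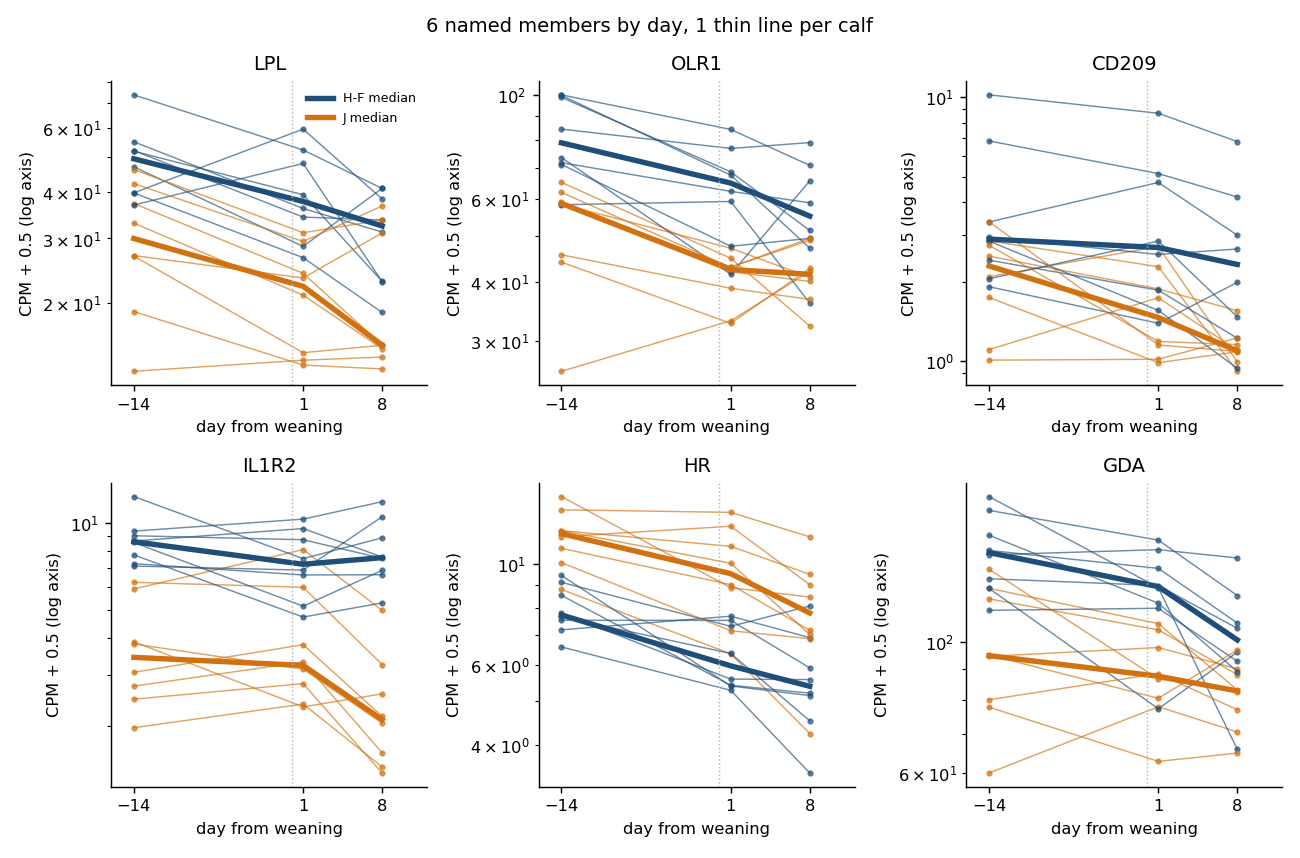
Level of 6 named members, as CPM + 0.5 on a log axis, against the day from weaning. Each thin line is 1 calf, blue for H-F and orange for J, and thick lines are breed medians. Within both breeds the medians of d 8 are below those of d -14, J medians are below H-F medians except for HR, and single calves cross these trends.

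The 37 members without a symbol outside the top 5 had mean changes of -0.905 to -0.352 on the log2 scale, with a median of -0.454. At d 8 they were 1.28 to 1.87 times lower. Their mean level was 1.47 to 112.3 CPM, close to the range of the named members, 1.25 to 105.5 CPM.

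Every calf had more members lower than higher at d 8. The number of the 57 that were lower ranged from 40 in J calf 13 to 57 in H-F calf 27 and J calf 7. Over all genes that passed the CPM minimum, the share lower at d 8 ranged from 45.03% in J calf 60 to 56.74% in J calf 57. The median change over the members was -0.195 in H-F calf 20, -0.999 in H-F calf 25, -0.682 in H-F calf 27 and -0.223 in H-F calf 32. It was -0.468, -0.743, -0.479 and -0.492 in H-F calves 33, 48, 49 and 56. In the J calves it was -0.486 for calf 6, -0.723 for calf 7, -0.446 for calf 9 and -0.225 for calf 13. For J calves 57, 60, 77 and 85 it was -0.353, -0.522, -0.594 and -0.411. The 2 breeds thus overlapped, with H-F calf 25 at one end and H-F calf 20 at the other. The mean fall was larger in H-F for 36 members and larger in J for 21, a split within the change used to choose them, which was not tested. The highest H-F calf was the same on all 3 days for 15 members and the highest J calf for 16. The share over all genes was not computed for these counts or for that split, so neither can be read as a trait of the members.

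**Figure D3:**
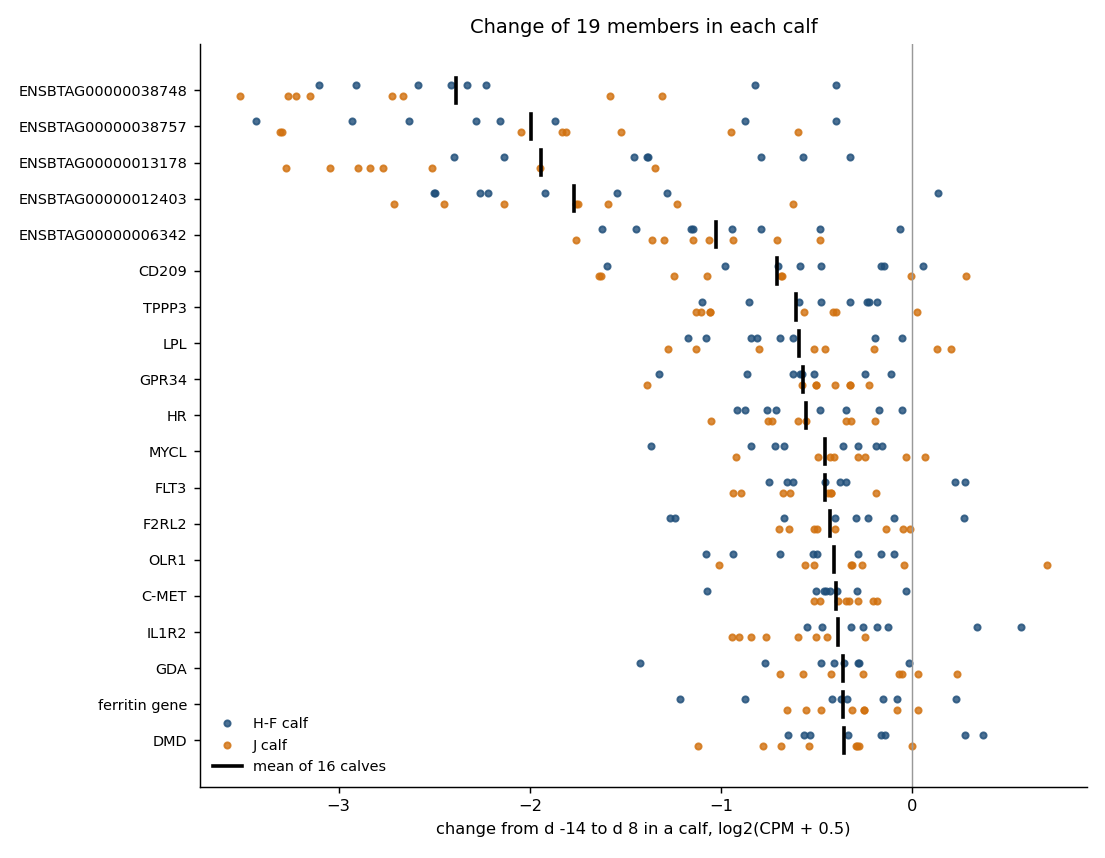
Change from d -14 to d 8 on the log2(CPM + 0.5) scale in each calf for 19 members, the 5 with the largest falls and 14 named ones. Each point is a calf, blue for H-F and orange for J, and the black bar is the mean of 16 calves. Most points lie left of 0, as the rule requires, and the J calf at 0.70 for OLR1 is calf 13.

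The d 1 libraries entered the rule through the CPM minimum, and their changes did not. The mean level of 57 of 57 members was lower at d 1 than at d -14, against 50.7% of all genes, and that of 57 of 57 was lower at d 8 than at d 1, against 51.7%. Each of these differences holds the d -14 or d 8 values that chose the members, so both counts are a description and no evidence of a course. The share of the fall present at d 1 ranged from 27% to 98.3% with a median of 65.7%, while 68.2% of the days between the first and the last sampling (15 of 22) had passed by then. Over 50% of the fall was present at d 1 for 51 members. This share uses the same d -14 and d 8 values and is a description too. Among the named members it was highest for the ferritin gene (88.3%), MYCL (87.9%) and OLR1 (86.0%), and it was lowest for IL1R2 (27%), CD209 (43.1%) and GDA (48.1%). The 5 members with the largest falls had close values, 63.9% to 74.2%.

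For a test, d 1 was compared with the mean of d -14 and d 8. This contrast is uncorrelated with the one behind the rule only under 2 conditions. The spread must be equal on each day, and d 1 must covary equally with d -14 and d 8. Neither condition was checked, and the contrast holds d -14 and d 8 values, so its independence from the rule is not shown. In edgeR's quasi-likelihood test, 0 of 57 members passed an adjusted p of 0.1, where 0% of the 12717 genes tested did. The members' median difference from the midpoint was -0.091 on the log2 scale, against 0.0027 over all genes, and 51 of the 57 differences were below 0, against 47.8% of all genes. A steady fall already puts a gene below the midpoint at d 1, when 68.2% of the days had passed. All genes are thus no fitting baseline for genes chosen because they fell. The members also share the same calves, so the median and the count are a description. An unadjusted p below 0.05 was found for 2 members and 235 genes (1.85%). With calf as a block, which uses the pairing of the 3 samples of a calf, 0 members passed too, the median was -0.10, and an unadjusted p below 0.05 was found for 8 members and 1132 genes (8.9%). Without J calf 85 these counts were 2 members and 121 genes without the block, and 4 members and 588 genes with it. DESeq2 and limma-voom also called 0 members. In edgeR's blocked test the smallest adjusted p of the members was 0.405, which was also the smallest over all genes. It belonged to a gene without a symbol, with a difference of -0.346 ± 0.079 (SE, edgeR unadjusted p = 0.000106). For OLR1 the blocked difference was -0.157 ± 0.075 (SE), with an adjusted p of 0.547 in edgeR's test. The values for MYCL were -0.249 ± 0.111 and 0.542. A departure of d 1 from the midpoint was therefore not detectable for any single member in these calves.

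The breed difference of the same contrast was also called for 0 of 57 members. For IL1R2 it was 0.679 ± 0.171 (SE, J minus H-F, calf as a block), with an unadjusted p of 0.00036 and an adjusted p of 0.496 by edgeR's test across all genes. Its J calves lay above their own midpoint at d 1 relative to the H-F calves, but this result failed the correction.

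**Figure D4:**
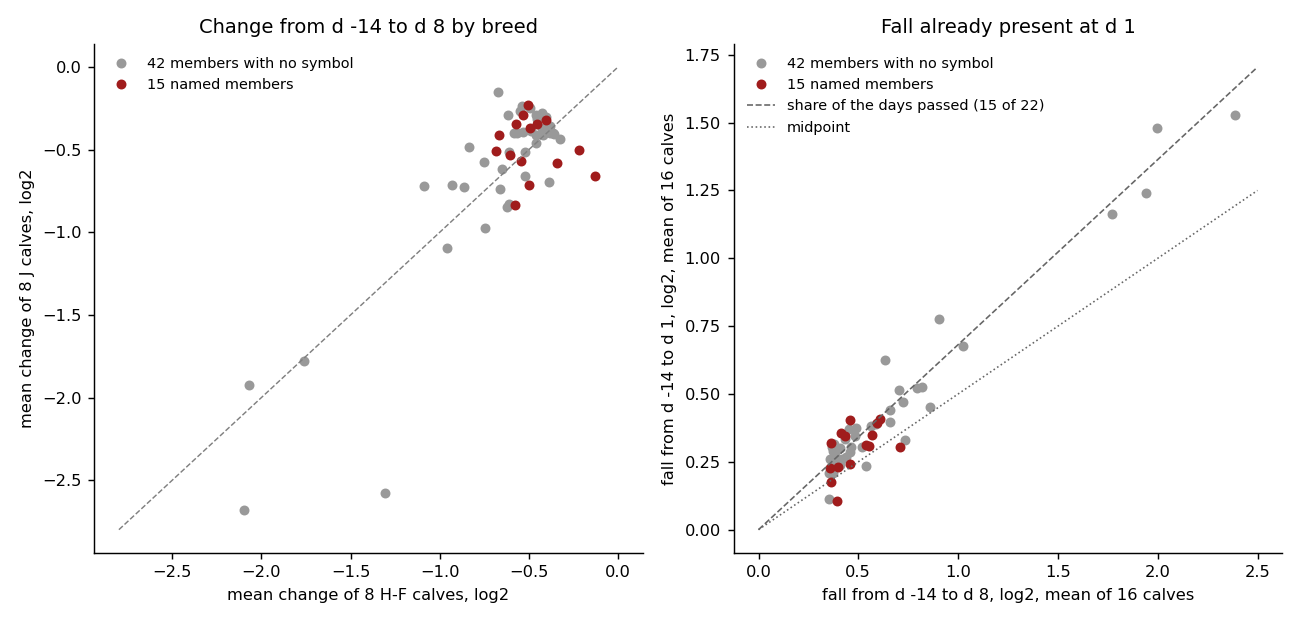
The left panel plots the mean change from d -14 to d 8 of the 57 members in 8 J calves against that in 8 H-F calves, on the log2 scale, with the line of equal change. The right panel plots the mean fall by d 1 against the mean fall by d 8 in 16 calves, with dashed and dotted lines for 68.2% (the share of days passed) and 50% of the fall. In the left panel ENSBTAG00000013178 lies apart, at -1.31 in H-F and -2.58 in J, and in the right panel 51 members lie above the dotted line.

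The breeds were compared at d 1 in the 16 libraries of that day alone. Of the 57 members 55 could be tested and 10 were called at an adjusted p below 0.1 and at least 1.5-fold, 9 of them lower in J and 1 higher. That is 18.2% of the members tested, against 4.46% of the 12338 genes tested (1.81% lower in J and 2.65% higher). The median difference of the members was -0.30 on the log2 scale, against -0.0059 over all genes, and 46 were below 0 and 9 above. A symbol or name was known for 9 of the 10. Because symbols and names came from lists of genes chosen for a breed difference in these same libraries, calls of the named genes are not independent evidence. Without the fold threshold 16 members were called, 14 lower and 2 higher in J, or 29.1% against 18.4% of all genes (8.57% lower and 9.86% higher). Without J calf 85 there were 7 calls among 54 members, or 13% against 2.81%. For 0 of the 57 members were the breeds free of overlap at d 1, as they were for 0.703% of the 12382 genes.

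Both lipid genes were lower in J. LPL had values of 26.1, 37.3 and 58.9 CPM (lowest, median, highest) in H-F and of 13.1, 21.7 and 30.6 CPM in J, and its log2 fold change of J over H-F was -0.99 ± 0.21 (SE, edgeR adjusted p = 0.0175). For LPL 6 of 8 H-F calves were above all J calves. OLR1 had values of 41.0, 64.4 and 83.8 CPM in H-F and 32.2, 42.01 and 46.7 CPM in J, with a fold change of -0.70 ± 0.13 (edgeR adjusted p = 0.0124), and 7 of 8 H-F calves exceeded every J calf. OLR1 had the smallest adjusted p of the members.

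Of the receptor genes, CD209 had the largest difference at -1.52 ± 0.46 on the log2 scale (edgeR adjusted p = 0.0555), with 0.892, 2.19 and 8.19 CPM in H-F and 0.487, 0.963 and 2.22 CPM in J. IL1R2 had 4.24, 6.71 and 9.81 CPM in H-F and 1.82, 2.73 and 7.60 CPM in J, a difference of -1.04 ± 0.29 (edgeR adjusted p = 0.0416). J calves 6 and 7, at 5.50 and 7.60 CPM, lay within the H-F range for IL1R2, and 6 of 8 J calves lay below all H-F calves. GPR34 was lower in J by 0.66 ± 0.19 (edgeR adjusted p = 0.0423), with 6 of 8 H-F calves above all J calves. FLT3 (-0.39, edgeR adjusted p = 0.128) and F2RL2 (-0.52, 0.118) did not pass.

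HR was the member called higher in J, with values of 4.78, 5.48 and 7.18 CPM in H-F and 5.85, 9.03 and 12.5 CPM in J. Its difference was 0.61 ± 0.15 (edgeR adjusted p = 0.0319), close to the fold threshold, and in limma-voom it was under that threshold at 0.57. C-MET was also higher in J, by 0.50 ± 0.19 (edgeR adjusted p = 0.0963), which is under 1.5-fold. HR and C-MET thus had a fall shared by the breeds and a level that was higher in the J calves.

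TPPP3 was lower in J by 0.77 ± 0.18 (SE, edgeR adjusted p = 0.0266), with 52.1, 59.1 and 96.6 CPM in H-F and 22.9, 41.6 and 54.4 CPM in J. MYCL had a difference of -0.85 ± 0.30 and the ferritin gene one of -0.67 ± 0.23, with edgeR adjusted p of 0.0818 and 0.078, and neither passed without J calf 85 (0.125 and 0.126). GDA was lower in J by 0.53 ± 0.12 (edgeR adjusted p = 0.0263), under the fold threshold. DMD (-0.28, edgeR adjusted p = 0.409) did not pass. The 10th called member, ENSBTAG00000014600, named here because it completes the count, was lower in J by 0.95 (edgeR adjusted p = 0.0646). It did not pass without J calf 85 (edgeR adjusted p = 0.107), and its mean level was 1.47 CPM. Of the 5 members with the largest falls, ENSBTAG00000038748 differed by -0.20 ± 0.61 (edgeR adjusted p = 0.836), and by -0.02 without J calf 85, -1.005 in DESeq2 and -0.61 in limma-voom, none of which was called.

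**Figure D5:**
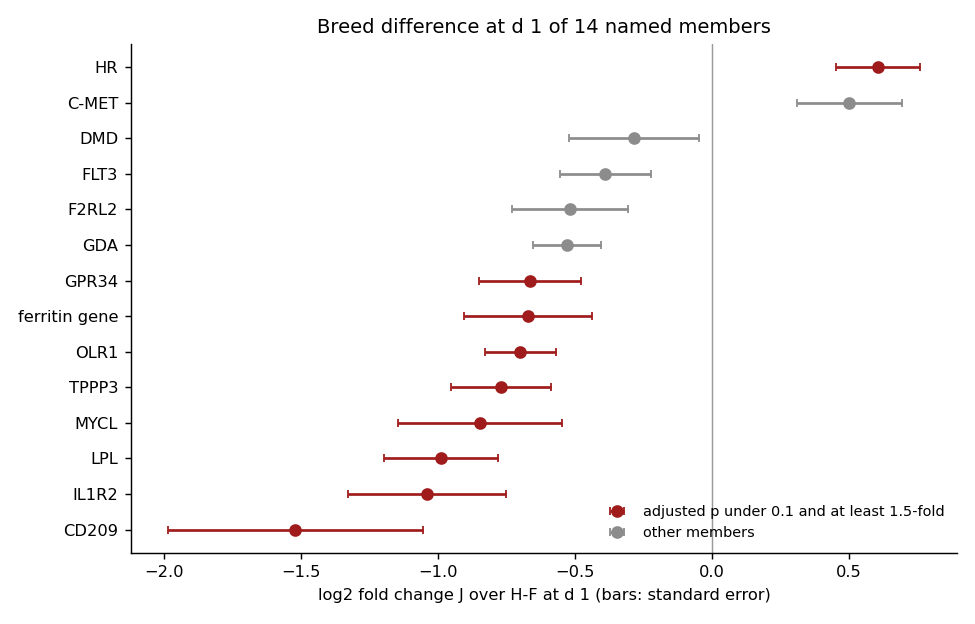
Log2 fold change of J over H-F at d 1 for 14 named members, with standard errors, from edgeR on 8 H-F and 8 J libraries. Red points passed an adjusted p of 0.1 and 1.5-fold. HR and C-MET lie right of 0 and the other 12 left of it, with CD209 farthest at -1.52.

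Over all genes, d 8 against d -14 gave 34 calls (0.267% of 12717) at an adjusted p below 0.1 and 1.5-fold in edgeR, 19 lower (0.149%) and 15 higher (0.118%). With calf as a block there were 88 calls (0.692%), 38 lower (0.299%) and 50 higher (0.393%). Of the members 12 were among the calls without the block and 24 with it, which says nothing beyond the rule, as it used this contrast. Without the fold threshold the block called 874 genes lower (6.87%) and 1010 higher (7.94%), and the members were then 57 of the 874.

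The members were set beside gene lists for blood cell types and for pathways, of which 18 of 24 had at least 1 gene with a symbol here and 72 genes could be matched. The matched genes come from lists of genes that differ between the breeds and are a small share of most lists. By the blocked fit with no fold threshold 5 of the 72 were lower and 16 higher at d 8. Without the block 1 was lower, FLT3, and 1 higher, COX6A2, a subunit of cytochrome c oxidase, which changed by 0.64 ± 0.13 (SE, blocked fit). The members among the 72 were FLT3 and IL1R2 of the glucocorticoid-responsive genes and LPL of the liver X receptor targets. All 3 were among the 5 lower, which says nothing beyond the rule, as it used this contrast. The lower genes that are no members were ABCA1 and MSR1. Liver X receptors are the sterol sensors that switch on lipid export genes. Only 2 of the 16 targets listed were matched. The other matched target, ABCA1, the cholesterol exporter, changed by -0.27 ± 0.07 (SE, edgeR adjusted p = 0.0104 with calf as a block and 0.496 without it). The part of these receptors in the falls of the members was not tested. The remaining 3 glucocorticoid-responsive genes included CRISPLD2, which changed by 0.47 ± 0.15 (edgeR adjusted p = 0.0514 with calf as a block), opposite to IL1R2 and FLT3, and ADORA3, which changed by -0.30 ± 0.12 (0.101).

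Of the 2 monocyte genes matched out of 21, the scavenger receptor MSR1 was lower at d 8 by 0.28 ± 0.08 (SE, edgeR adjusted p = 0.0325 with calf as a block) and the lectin CLEC10A changed by -0.04 ± 0.18 (0.907). Their summed level was 4.68 to 25.98 CPM with a median of 9.98 at d -14 and 3.65 to 26.9 CPM with a median of 7.35 at d 8. Of the 9 B cell genes matched out of 19, 6 were higher, among them MS4A1, which encodes CD20, by 0.31 ± 0.05 (edgeR adjusted p = 0.000281 with calf as a block). The summed level of the 9 went from 515.5 to 1603 CPM with a median of 1050.0 at d -14 to 829.4 to 2000.0 CPM with a median of 1166 at d 8. The summed level of the 5 neutrophil genes matched out of 33 had medians of 630.4 and 623.1 CPM on these days. Of the 5 genes 1, LCN2, was called higher at d 8, by 0.165 ± 0.061 (SE, edgeR adjusted p = 0.0828 with calf as a block). Only 1 of them, MPO, had a change below 0. The median sum of the 9 platelet genes was 300.4 CPM at d -14 and 347.2 CPM at d 8, and no matched gene of these lists was at 0 in all libraries. Other genes higher at d 8 by the blocked fit included HIST1H1C, a linker histone, by 0.53 ± 0.12 (edgeR adjusted p = 0.00639), and the platelet list's THBS1, thrombospondin 1, by 0.49 ± 0.11 (0.0068). GZMB of the cytotoxic lymphocyte list was higher by 0.48 ± 0.14 (edgeR adjusted p = 0.0316), while 4 of the 6 genes of that list had changes below 0. IFIT3 of the interferon-stimulated list was higher by 0.47 ± 0.13 (0.0194), and 2 of the 10 genes of that list had changes below 0. The part of these cell types in the falls of the members was not tested.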

How the data were processed

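Whole blood RNA of 16 calves on 3 days was sequenced in 48 libraries (poly A selected, a kit that does not mark strand). The authors checked reads with FastQC 0.10.0, aligned them to the UMD 3.1 genome with STAR, kept unique alignments and deposited the whole-number counts that HTSeq gave for each Ensembl gene, without normalization. The sources used here give no version of STAR or HTSeq. Calf, breed and day came from the labels, and 0 columns were left over. The table also holds 92 spike-in rows, with 0.174% to 0.322% of a library's counts, which were left out of library sizes and tests.

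CPM was computed with the sum over annotated genes, and per-calf changes on log2(CPM + 0.5). Tests used edgeR 4.0.16 in R 4.3.3 with TMM factors, genes of more than 1 CPM in at least 8 libraries, a mean per breed and day, and Benjamini-Hochberg adjustment over all genes. Genes were called at an adjusted p below 0.1, and at 1.5-fold where stated, the thresholds of the study, whose exact test was replaced by the quasi-likelihood test. The study's methods do not pair samples, so calf was left out of the main fit. The calf numbers in the labels pair the samples: residuals of the same calf correlated at 0.309 to 0.911 and those of different calves at -0.668 to 0.466. Alternatives were DESeq2 1.42.0, limma-voom (limma 3.58.1), RLE factors, other filters and thresholds, calf as a block, and leaving out J calf 85. Leaving out J calf 85 from the blocked fit was chosen after seeing the data. Figures used Python 3.11.15 and matplotlib 3.10.9.

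On simulated data with 100 genes changed by 0.5 and 100 by 1 (log2), the midpoint test without block recovered 87% and 99%, and the breed test at d 1 recovered 74% and 94%. Recovery was counted at an adjusted p below 0.1 with no fold threshold, so the breed values do not describe calls that also needed 1.5-fold. The simulated libraries were independent, with no calf effect, unlike the 3 samples of a calf here. The members and lists were chosen with earlier results of these data known. Named genes were drawn from the 10 largest falls, the 5 highest mean CPM and the 5 smallest p of the midpoint contrast in each direction. Further sources were the 5 largest breed differences called at d 1 and members on a list. The last were the 3 genes on each side of the threshold and the 2 largest changes per list. Not all genes of these groups are named here. Of genes without a symbol 2 were to be named, and the 4 others named were chosen after their values were seen. Symbols came from names the study pairs with 800 Ensembl genes. Per-gene sequences and positions were not used here, and 1 named member is not reported here. Replicates are separate calves. The precision of most genes is limited by the spread between calves, and that of genes near 1 CPM by counting as well.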

Additional observations from a re-analysis of the deposited data

Results flagged for a closer look

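In each of 6 groups of 8 calves, the highest and lowest calf of 17 members (the 15 named ones and the top 2 by fall) were compared with the nearest other calf by Dixon's criterion. Of 102 groups 9 held a calf apart from the rest, where chance gives 5.1.

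J calf 57 accounted for 5 of these. It had the highest level of ENSBTAG00000038748 at d 8, at 1.11e+03 CPM against 84.9 CPM for the next J calf, and of ENSBTAG00000038757 at d 8, at 4.84 CPM against 0.314 CPM. It had the highest level of the ferritin gene at d -14, at 3.16 CPM against 1.69 CPM. It had the lowest level of C-MET at d -14 (9.94 CPM, next 15.7 CPM) and at d 8 (6.82 CPM, next 12.8 CPM).

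H-F calf 32 had 961 CPM of ENSBTAG00000038748 at d 1, where the next H-F calf had 322 CPM. FLT3 was highest in H-F calf 33 at d 1, at 10.1 CPM against 6.51 CPM. GDA was lowest in H-F calf 20 at d 1, at 76.7 CPM against 114 CPM. OLR1 was lowest in J calf 13 at d -14, at 25.4 CPM against 43.6 CPM.

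Spike-in reads, which no comparison used, took 0.322% of the counts in the library with most and 0.174% in the one with least.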

How the results depend on the processing

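The midpoint contrast called 0 members and 0 genes under all alternatives run, among them the fit with calf as a replicate block. The count of 10 members called between breeds at d 1 was 7 to 11 under the alternatives that kept the fold threshold, and 16 without it. Over all genes the 550 breed calls were 345 without J calf 85 and 2273 without the fold threshold. The 34 calls of d 8 against d -14 over all genes were 55 by DESeq2, 84 by limma-voom, 58 with a mean count of at least 10, 104 with no filter on low counts and 84 without the fold threshold. They were 88 with calf as a block, 77 with the block and without J calf 85, and 1884 with the block and no fold threshold. The cause of these shifts was not tested, other than that a lower threshold calls more genes. Of 247 further values for named genes 239 kept their direction and their side of the threshold. In 3 the sign of an uncalled midpoint difference turned, for GDA from 0.003 to -0.003 with a mean count of at least 10 and with no filter on low counts, and for DMD from -0.032 to 0.006 without J calf 85. The call was lost in 5: HR in limma-voom (0.57), MYCL without the filter or without J calf 85 (-0.86 and -0.83) and the ferritin gene in the same 2 settings (-0.68 and -0.63). The block changed no call of a named gene in the midpoint contrast.

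The number of members was 56 with TMM-normalized library sizes (55 shared with the 57), 47 with a pseudocount of 1 (all 47 shared), 64 with a pseudocount of 0.1, 71 with no CPM minimum and 65 without J calf 85, and the last 3 sets held all 57. Depth limits members near 1 CPM, which rest on few reads.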
